A study of Mus musculus with 6 samples.

Results

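The 10 transcripts described here encode 8 matrix metalloproteinases (Mmp2, Mmp3, Mmp8, Mmp9, Mmp10, Mmp12, Mmp13 and Mmp14) and the tissue inhibitors Timp1 and Timp3. They were chosen by name with earlier results of these data known, so their counts beside all genes are descriptions and no test. Each is represented by the 1 probe set that carries its symbol alone, so that 10 of 22180 genes tested are members. They were measured in cultured fibroblast-like synoviocytes, which form the lining of joints, from the knee synovium of C57BL6 mice at passages 4 to 8. On 3 arrays the cells had been infected with an empty adenovirus (Mock), and on the other 3 with an adenovirus carrying Epas1 (Ad-Epas1), the gene of the oxygen-regulated transcription factor HIF-2alpha. Cells of both groups were infected for 2 h at a multiplicity of infection of 800 and incubated for 24 h, so both carried virus, and no array of uninfected cells was analysed here. The series design calls the 3 infections of a group biological replicates without saying if each had its own animals or culture. The p-values therefore reflect only the variation among these arrays, some of which may be technical. The labels do not name the promoter that drives Epas1 in the virus.

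Matrix metalloproteinases are zinc enzymes that cut the proteins of the extracellular matrix. Most are secreted as inactive proenzymes, and TIMP proteins block the active enzymes by binding them tightly. In inflamed joints synovial fibroblasts are a known source of stromelysins and collagenases, which are induced by interleukin-1 and tumour necrosis factor largely through AP-1, NF-kB and ETS transcription factors. The comparison of Ad-Epas1 with Mock asks which of these enzymes and inhibitors differ at the transcript level when Epas1 is delivered.

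Over all 6 arrays Mmp3 rose 1.38-fold and Timp3 was 3.87-fold lower in Ad-Epas1, and the other 8 transcripts did not pass the test. Of all genes tested, 6.57% were called higher and 9.75% lower at the same threshold, an adjusted p under 0.05 in limma. The array of Ad-Epas1 replicate 3 differed from the other 2 of its group for most of the enzymes. With that array left out, Mmp3, Mmp8, Mmp9, Mmp10, Mmp12 and Mmp13 rose and Timp3 fell, beside 10.3% of all genes called higher and 14.0% lower. The median log2 fold change of the 10 transcripts was 0.65 over all arrays against 0.05 for all genes, and 0.81 against 0.03 without Ad-Epas1 replicate 3. The lowest Ad-Epas1 array exceeded the highest Mock array for Mmp3, Mmp9, Mmp10 and Timp1, 4 of the 10, where 21.3% of all genes did so. The reverse held for Timp3, 1 of the 10, where 18.4% of all genes did so.

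**Figure D1:**
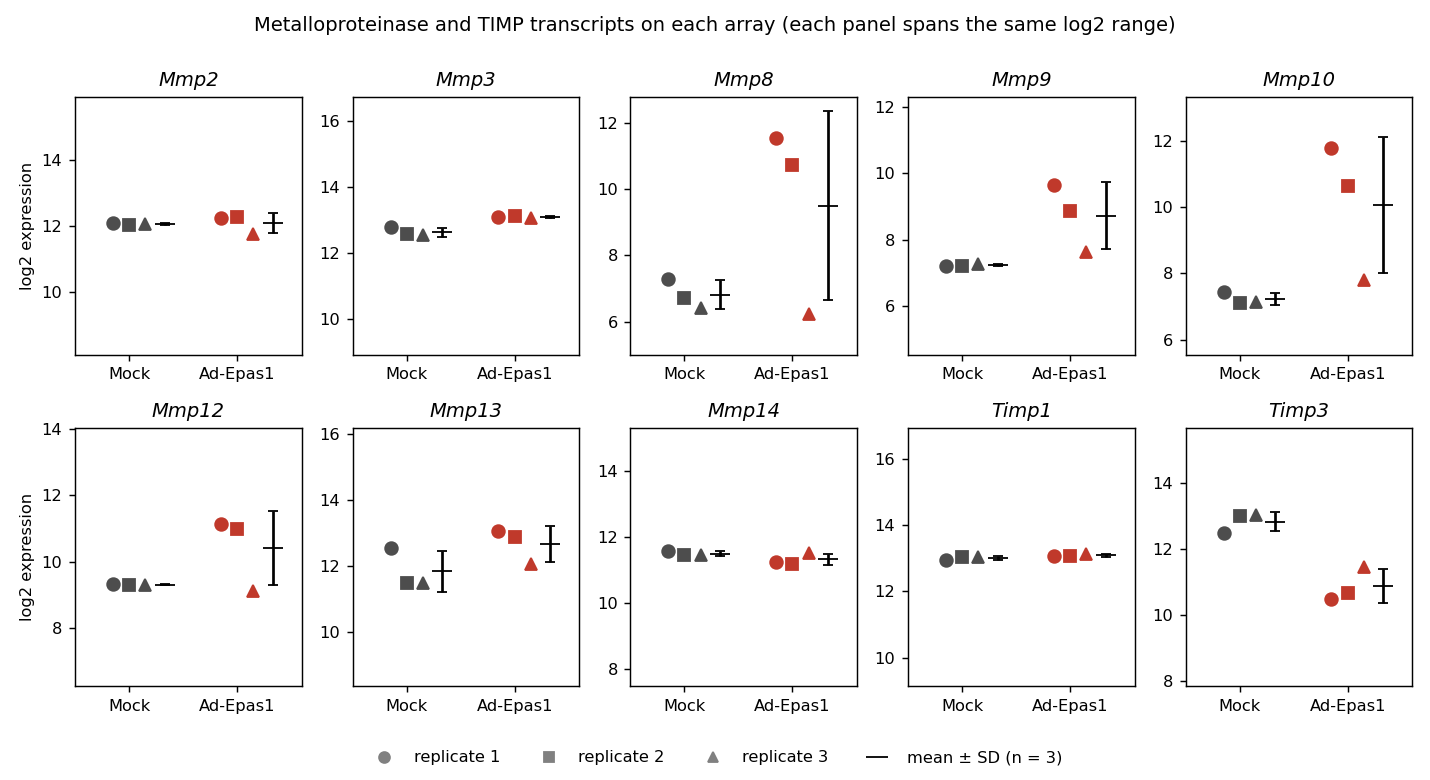
Log2 expression of each of the 10 transcripts (vertical axis) on the 3 Mock arrays (grey) and the 3 Ad-Epas1 arrays (red), with the marker shape giving the replicate and bars the mean ± SD (n = 3). Each panel spans the same log2 range. Mmp8, Mmp9, Mmp10 and Mmp12 are high on Ad-Epas1 replicates 1 and 2 and far lower on replicate 3, while Mmp3 is tightly grouped and Timp3 is below Mock on all 3.

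The arrays as a whole have a bearing on these values. All numbers are log2 levels after RMA, and array medians lay between 6.77 and 6.84. Epas1 stood at 8.67, 8.71 and 8.51 on the Mock arrays and at 13.14, 13.15 and 13.11 on the Ad-Epas1 arrays, a log2 fold change of 4.50 (SE 0.08, limma, adjusted p = 4.56e-06), so the delivered gene was high on Ad-Epas1 replicate 3 too. The labels give more than 90% CD90-positive and less than 1% CD14-positive cells. All 14 fibroblast markers were above 6.62, the 95th percentile of 1394 olfactory and vomeronasal receptor genes, on 5 arrays, and 13 on Ad-Epas1 replicate 3. Of the 14, Pdpn and Prg4 rose and 4 fell, among them Pdgfrb (-1.20) and Cdh11 (-1.26), and 2 rose and 7 fell without Ad-Epas1 replicate 3. Their median differed from the Mock mean by -0.46, -0.40 and -0.11 on Ad-Epas1 replicates 1, 2 and 3. Yet 21 of 22 macrophage markers were above it on 5 arrays, against 14 of 22 on Ad-Epas1 replicate 3. Lyz2, the lysozyme gene of macrophages, stood at 12.94, 12.81 and 12.75 in Mock and at 12.86, 12.78 and 7.15 in Ad-Epas1 replicates 1, 2 and 3. The log2 summed level of the 22 markers was 15.7 to 15.9 in Mock and 15.8, 15.6 and 12.05 in Ad-Epas1, and on the 3 Ad-Epas1 arrays the marker median differed from Mock by 0.00, -0.15 and -3.80. Single macrophage markers differed on Ad-Epas1 replicates 1 and 2 as well: over all arrays 0 rose and 5 fell, and with replicate 3 left out 2 rose and 6 fell, from Mrc1 at -2.36 to Cd14 at 1.48. These marker counts stand beside 6.57% of all genes called higher and 9.75% lower over all arrays, and 10.3% and 14.0% without Ad-Epas1 replicate 3. In bulk RNA, fewer cells of a type and less RNA per cell cannot be told apart. The part of macrophage, fibroblast or neutrophil transcripts in the members' values was not tested. Neutrophil markers were mostly dim, with 3 or 4 of 12 above 6.62 on an array, and Mpo, Elane and Ltf were among those below it on every array. Camp (1.80) and Prtn3 (0.28) were the 2 of the 12 that rose, and 0 fell. S100a8, at 5.88, 5.48 and 5.34 in Mock and 8.44, 6.97 and 5.35 in Ad-Epas1, was the third to rise without Ad-Epas1 replicate 3 (2.14, limma, adjusted p = 0.0108). The log2 summed level of the 12 was 9.69 to 9.89 in Mock and 10.7, 10.5 and 10.2 on Ad-Epas1 replicates 1, 2 and 3.

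**Figure D2:**
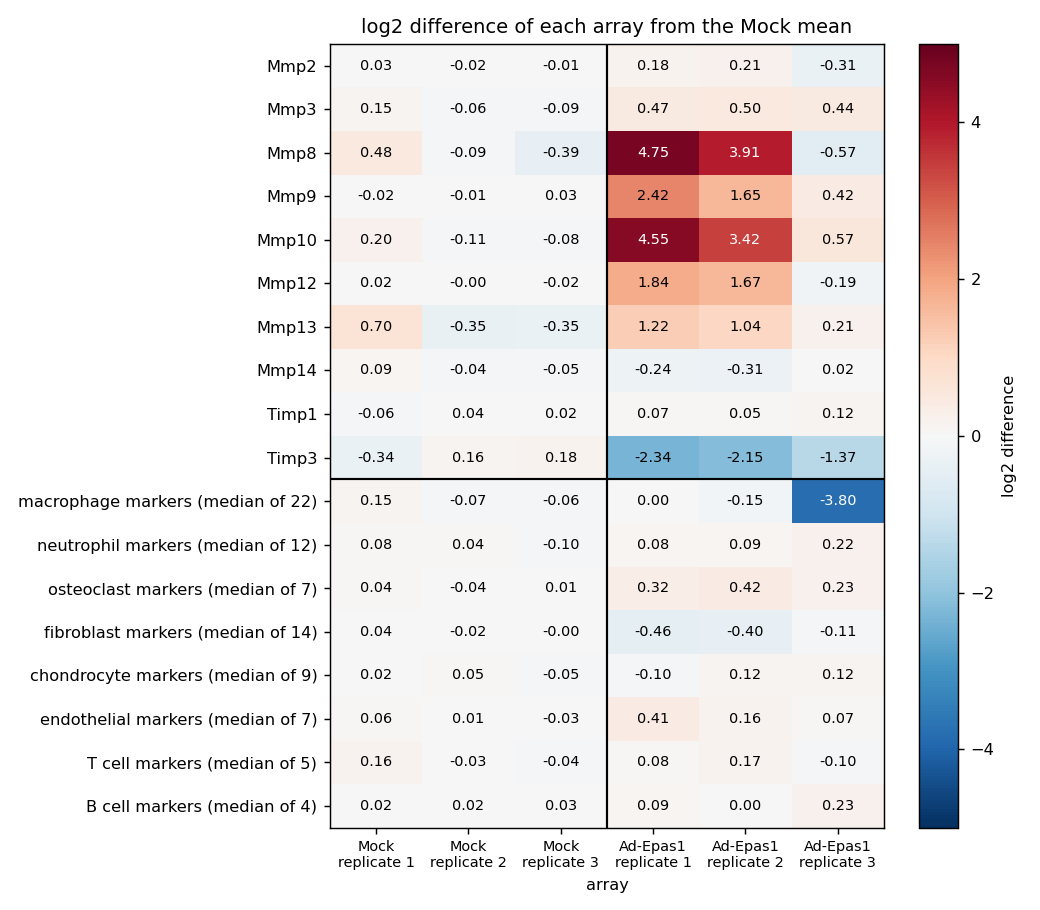
Difference of each array (columns) from the Mock mean, in log2 units, for the 10 transcripts (upper rows) and for the median of 8 cell type marker lists (lower rows), with colour from blue (lower) to red (higher). The macrophage row is at -3.80 on Ad-Epas1 replicate 3, where Mmp8, Mmp9, Mmp10 and Mmp12 lie between -0.57 and 0.57, against 1.65 to 4.75 on the other 2 Ad-Epas1 arrays.

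Of the 10 transcripts, 8 had an entry in the RefSeq promoter table of GRCm38.p6, and their 250 bases before the start were searched on both strands for 7 motifs. Mmp2 and Mmp9 had none. Mmp12 had 2 listed starts, and a gene was counted if any of its starts matched, while the shares of all promoters count each start. The AP-1 motif TGANTCA was present in 4 of the 8 (Mmp3, Mmp10, Mmp12 and Mmp13), beside 6.75% of 32851 promoters. These 4 lie in 1 cluster on chromosome 9 and rose without Ad-Epas1 replicate 3, so the 100 bases before their starts are printed here, together with those of Mmp8, a neighbour in which no AP-1 match was found. All are on the plus strand, written 5′ to 3′, with the AP-1 match in capitals. The windows are chr9:7445722-7445821 for Mmp3, chr9:7502242-7502341 for Mmp10, chr9:7347274-7347373 for Mmp12 (the second of its 2 listed starts), chr9:7272414-7272513 for Mmp13 and chr9:7558329-7558428 for Mmp8.
Mmp3: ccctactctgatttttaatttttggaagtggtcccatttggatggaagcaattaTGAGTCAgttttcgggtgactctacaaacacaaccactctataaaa
Mmp10: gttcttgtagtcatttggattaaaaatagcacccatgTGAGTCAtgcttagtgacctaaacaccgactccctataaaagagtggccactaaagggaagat
Mmp12: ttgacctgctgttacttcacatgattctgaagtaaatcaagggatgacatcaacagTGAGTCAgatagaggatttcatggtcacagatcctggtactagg
Mmp13: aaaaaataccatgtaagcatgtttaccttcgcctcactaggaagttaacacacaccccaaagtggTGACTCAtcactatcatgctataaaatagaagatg
Mmp8: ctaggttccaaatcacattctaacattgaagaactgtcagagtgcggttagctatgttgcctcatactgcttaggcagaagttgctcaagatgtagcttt

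The other listed start of Mmp12 held no AP-1 match. The match began 46 bases before the start in Mmp3, 63 in Mmp10, 44 in Mmp12 and 35 in Mmp13. It read TGAGTCA in the first 3 of these genes and TGACTCA in Mmp13, and overlapped no match of another motif. In the same cluster Mmp1a, Mmp1b, Mmp20 and Mmp7, which are not among the 10, held an AP-1 match as well. Without Ad-Epas1 replicate 3 Mmp1a was called higher, and Mmp1b, Mmp20 and Mmp7 were not. Mmp8, with no match, was called higher in that fit too. Mmp3, Mmp10 and Mmp13 also held the TATA box TATAAA, which occurs in 12.4% of all promoters. The ETS motif AGGAAG was found in 7 of the 8, all but Mmp10, and in 29.5% of all promoters. The cores to which HIF proteins bind were found in other members: ACGTG in Mmp14 and Timp1 (16.6% of all promoters) and GCGTG in Timp1 and Timp3 (28.2%). The cyclic AMP response motif TGACGTCA (1.55% of all promoters) and an NF-kB motif of GGG and TTTCC set 2 bases apart (1.41%) were found in 0 of the 8 genes. These matches describe the letters in the windows and do not show that a factor was bound.

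Mmp3 and Mmp10 encode the stromelysins, which cut proteoglycans, fibronectin and other matrix proteins and activate other proenzymes. Mmp3 (probe set 17514515) stood at 12.78, 12.57 and 12.54 on the Mock arrays and at 13.10, 13.13 and 13.07 on the Ad-Epas1 arrays. The groups did not overlap, and Ad-Epas1 replicate 3 was as high as the other 2 of its group. From 12.63 ± 0.13 in Mock to 13.10 ± 0.03 in Ad-Epas1 (SD, n = 3 each), the log2 fold change was 0.47 (SE 0.08, 95% interval 0.27 to 0.66, limma, adjusted p = 0.0137). It was 0.48 without Ad-Epas1 replicate 3 (adjusted p = 0.0120). The call of Mmp3 ended on dropping the second Mock array (adjusted p = 0.0699), the third Mock array (0.0649) or the second Ad-Epas1 array (0.0581), that is replicates 2 and 3 of Mock and replicate 2 of Ad-Epas1, which left 0 members called higher. In those fits 1 member, Timp3, was called lower.

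Mmp10 (probe set 17514541) stood at 7.42, 7.11 and 7.15 in Mock and at 11.78, 10.65 and 7.80 in Ad-Epas1. All 3 Ad-Epas1 arrays were above all Mock arrays, yet replicate 3 was 0.57 above the Mock mean where replicates 1 and 2 were 4.55 and 3.42 above it. Its log2 fold change of 2.85 (SE 0.92, 95% interval 0.66 to 5.03) did not pass (limma, adjusted p = 0.0821). When that array was left out, Mmp10 rose 15.8-fold, by 3.98 on the log2 scale (SE 0.31, adjusted p = 0.000492).

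Mmp8 and Mmp13 encode collagenases, enzymes that can cut the triple helix of fibrillar collagen. Mmp8 (probe set 17514553), also called neutrophil collagenase, stood at 7.30, 6.73 and 6.42 in Mock and at 11.56, 10.73 and 6.24 in Ad-Epas1. Ad-Epas1 replicates 1 and 2 were above every Mock array and replicate 3 was below every one, so the groups overlapped. Mock replicate 3 and Ad-Epas1 replicate 3 were below 6.62, the level under which 95% of the receptor genes lay. Its log2 fold change of 2.69 (SE 1.29, 95% interval -0.38 to 5.77) did not pass (limma, adjusted p = 0.199). On the other 5 arrays Mmp8 rose 20.1-fold, by 4.33 (SE 0.32, 95% interval 3.57 to 5.09, adjusted p = 0.000422), the highest estimate of the 10 in that fit. Because its Mock levels lie near those of the receptor genes, the size of this fold is not exact. The neutrophil marker S100a8 was likewise high on Ad-Epas1 replicates 1 and 2 only. S100a9 did not pass (0.09, limma, adjusted p = 0.670). Like Mpo, Elane and Ltf it stayed under 6.62 on every array, so the differences of these markers are uncertain. Camp was above Mock on all 3 Ad-Epas1 arrays (9.14, 8.94 and 8.26), and so was Prtn3 (7.40, 7.42 and 7.25). Any part of neutrophil transcripts in the Mmp8 values was not tested.

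Mmp13 (probe set 17514482), the main collagenase of the rodent joint, stood at 12.53, 11.48 and 11.49 in Mock and at 13.05, 12.88 and 12.05 in Ad-Epas1. Mock replicate 1 was above the other Mock arrays and above Ad-Epas1 replicate 3, so the groups overlapped by that pair. The log2 fold change was 0.83 (SE 0.37, 95% interval -0.04 to 1.70, limma, adjusted p = 0.170). Leaving out Ad-Epas1 replicate 3, Mmp13 rose 2.19-fold, by 1.13 on the log2 scale (SE 0.32, adjusted p = 0.0440). With both Mock replicate 1 and Ad-Epas1 replicate 3 left out, the rise was 1.48 (SE 0.09, adjusted p = 0.000252).

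Mmp12 encodes macrophage elastase, which degrades elastin. Its transcript (probe set 17514495) stood at 9.32, 9.30 and 9.29 in Mock and at 11.15, 10.97 and 9.12 in Ad-Epas1. The 3 Mock arrays were close together, Ad-Epas1 replicates 1 and 2 were far above them, and replicate 3 was below them. The difference of 1.11 on the log2 scale (SE 0.50, 95% interval -0.09 to 2.31) did not pass (limma, adjusted p = 0.180). In the fit without that array Mmp12 rose 3.38-fold, by 1.76 on the log2 scale (SE 0.08, adjusted p = 0.000149).

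Mmp2 and Mmp9 encode the gelatinases, which degrade denatured collagen and the type IV collagen of basement membranes. Mmp9 (probe set 17379606) stood at 7.20, 7.21 and 7.25 in Mock and at 9.64, 8.88 and 7.64 in Ad-Epas1. The groups did not overlap, and the Ad-Epas1 arrays were spread far more widely than the Mock arrays. The difference of 1.498 on the log2 scale (SE 0.45, 95% interval 0.42 to 2.58) did not pass (limma, adjusted p = 0.0695). With Ad-Epas1 replicate 3 left out Mmp9 rose 4.11-fold, by 2.04 on the log2 scale (SE 0.21, adjusted p = 0.00116).

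Mmp2 (probe set 17503825), the gelatinase that fibroblasts make constitutively, stood at 12.11, 12.05 and 12.06 in Mock and at 12.25, 12.28 and 11.76 in Ad-Epas1. Replicates 1 and 2 of Ad-Epas1 were slightly above and replicate 3 below all Mock arrays. The log2 fold change was 0.03 (SE 0.14, 95% interval -0.32 to 0.37, limma, adjusted p = 0.919), and -0.03 with each array centred on its median. Omitting Ad-Epas1 replicate 3 gave 0.19 with an interval of 0.03 to 0.36 and did not pass (adjusted p = 0.0891).

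Mmp14 encodes a membrane-anchored metalloproteinase that cuts collagen at the cell surface and activates the Mmp2 proenzyme. Its transcript (probe set 17300279) stood at 11.58, 11.45 and 11.44 in Mock and at 11.24, 11.18 and 11.51 in Ad-Epas1. Replicates 1 and 2 of Ad-Epas1 were below all Mock arrays, and replicate 3 lay within the Mock range. The fitted difference was -0.18 (SE 0.10, 95% interval -0.42 to 0.07, limma, adjusted p = 0.284). Omitting Ad-Epas1 replicate 3 gave -0.27 (adjusted p = 0.050), which was not under the threshold.

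Timp3 encodes an inhibitor that stays bound to the matrix and also blocks ADAM and ADAMTS proteases. Its transcript (probe set 17236182) stood at 12.49, 12.99 and 13.01 in Mock and at 10.50, 10.68 and 11.46 in Ad-Epas1. All 3 Ad-Epas1 arrays were below all Mock arrays, and the drop on replicate 3, at -1.37 from the Mock mean, was smaller than on replicates 1 (-2.34) and 2 (-2.15). From 12.83 ± 0.29 in Mock to 10.88 ± 0.51 in Ad-Epas1 (SD, n = 3 each), Timp3 fell by 1.95 on the log2 scale (SE 0.27, 95% interval -2.59 to -1.31, limma, adjusted p = 0.00615). The call held with each array left out in turn, with adjusted p between 0.000477 and 0.0373, but ended in a per-gene test without shared variance (adjusted p = 0.0571). In the same per-gene test Mmp3 had an adjusted p of 0.0523. Of the 14 fibroblast markers, 2 rose and 4 fell over all arrays, beside 6.57% of all genes called higher and 9.75% lower. Without Ad-Epas1 replicate 3, 2 of them rose and 7 fell, beside 10.3% and 14.0% of all genes. Any link of these markers to Timp3 was not tested.

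Timp1 (probe set 17533713), an inducible and secreted inhibitor of most metalloproteinases, stood at 12.95, 13.05 and 13.03 in Mock and at 13.08, 13.06 and 13.13 in Ad-Epas1. The groups did not overlap, but the gap between Mock replicate 2 and Ad-Epas1 replicate 2 was smaller than the range within Mock. The fitted difference was 0.08 (SE 0.07, 95% interval -0.08 to 0.23) and did not pass (limma, adjusted p = 0.436). An exact two-sided permutation test of 3 arrays against 3 could not go below p = 0.1, the value reached by the 5 transcripts whose groups did not overlap (Mmp3, Mmp9, Mmp10, Timp1 and Timp3).

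**Figure D3:**
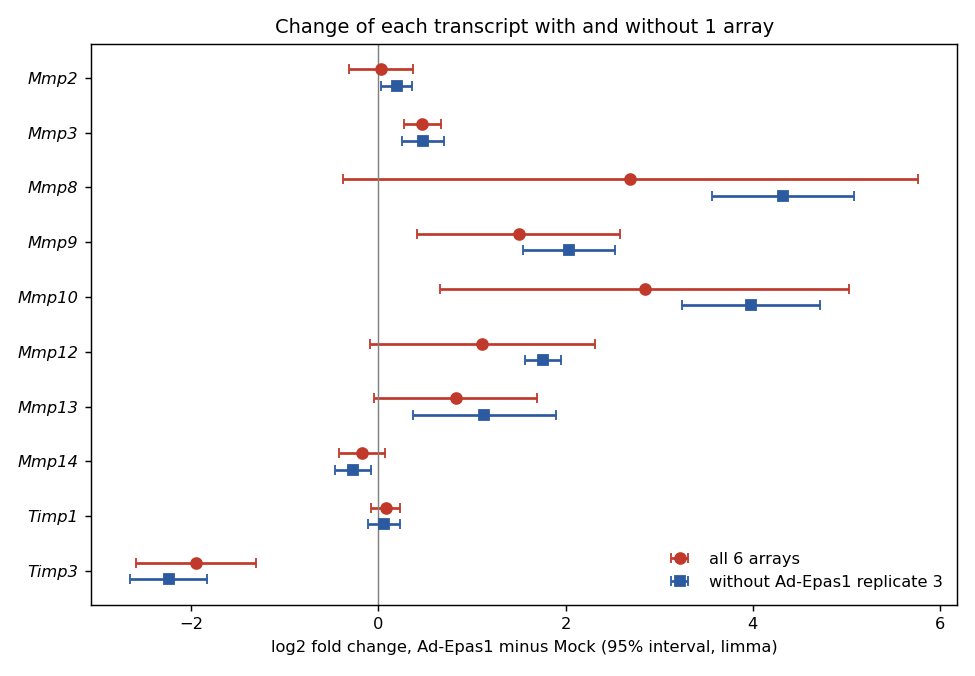
Log2 fold change of each transcript, Ad-Epas1 minus Mock (horizontal axis), with its 95% interval from limma, over all 6 arrays (red circles) and without Ad-Epas1 replicate 3 (blue squares). The intervals of Mmp8 (-0.38 to 5.77) and Mmp12 (-0.09 to 2.31) include 0 over all arrays and narrow to 3.57 to 5.09 and 1.56 to 1.95 without that array, while those of Mmp3 and Timp3 lie on 1 side of 0 in both fits.

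Mmp3, Mmp8, Mmp10, Mmp12 and Mmp13 are neighbours on chromosome 9. In RefSeq's GRCm38.p6 annotation the metalloproteinase genes there run in the order Mmp13, Mmp12, Mmp1b, Mmp3, Mmp1a, Mmp10, Mmp8, Mmp27, Mmp20 and Mmp7, and all 10 were measured. Over all arrays 1 of the 10, Mmp3, rose and 0 fell, beside 6.57% of all genes called higher and 9.75% lower. Without Ad-Epas1 replicate 3, 7 rose and 0 fell, beside 10.3% of all genes called higher and 14.0% lower. Of the 7, 5 are members, chosen with earlier results known and already counted above, so this count is not separate evidence. The others were Mmp1a (log2 fold change 0.88, limma, adjusted p = 0.0120) and Mmp27 (1.15, adjusted p = 0.0208), both named after their values were seen. Mmp1b (0.94, adjusted p = 0.0809), Mmp20 (0.16, 0.432) and Mmp7 (0.09, 0.450) did not pass in that fit. Mmp1a and Mmp1b are closely related copies, the mouse counterparts of interstitial collagenase, and were at 3.75 to 5.58 on every array, under the 6.62 mark, so their values are uncertain.

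The 2 highest estimates of the cluster were those of Mmp10 and Mmp8, which adjoin. Mmp20 and Mmp7, at its far end, were under the 6.62 mark on every array too, so their small differences are uncertain. The gene next to Mmp13 outside the cluster, Dcun1d5, rose by 0.46 without Ad-Epas1 replicate 3 (limma, adjusted p = 0.00612), and Tmem123, next to Mmp7, was at 0.00. Of the 3 genes on each side, Dcun1d5 and Birc3 (0.93, adjusted p = 0.0351) rose, Dync2h1 (-0.30, 0.0355) and Birc2 (-0.40, 0.0365) fell, and Ddi1 and Tmem123 did not pass. These 6 flanking genes were taken by position.

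**Figure D4:**
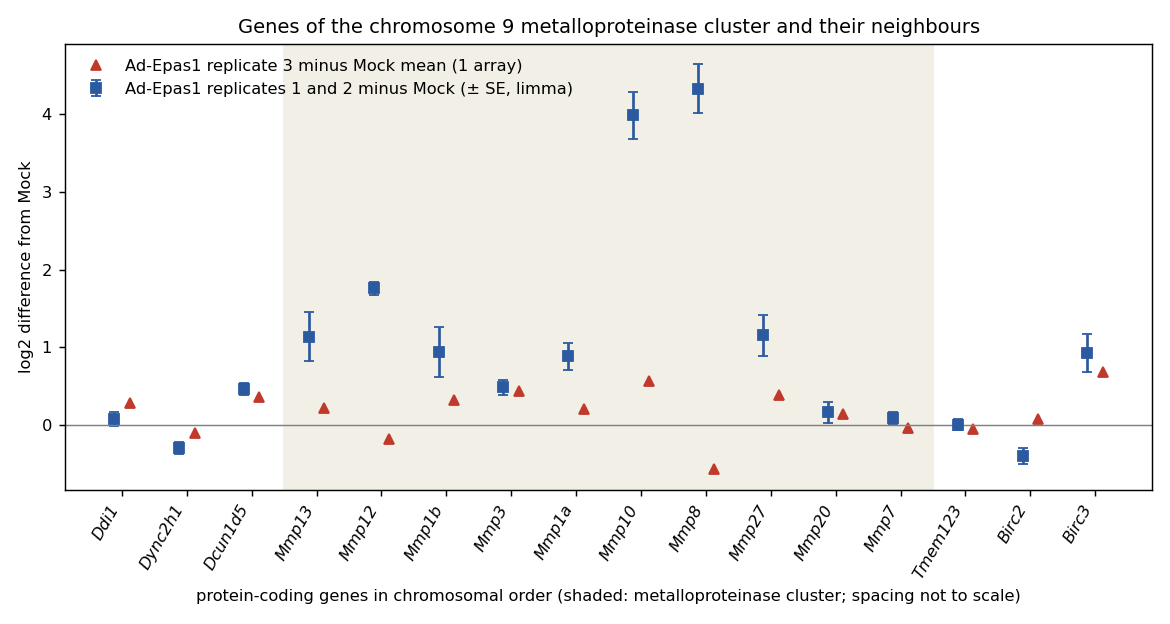
Log2 difference from Mock (vertical axis) of the 10 metalloproteinase genes of the chromosome 9 cluster (shaded) and 3 genes on each side, in chromosomal order with spacing not to scale. Blue squares are Ad-Epas1 replicates 1 and 2 against Mock (± SE, limma) and red triangles are Ad-Epas1 replicate 3 alone. Mmp10 and Mmp8 stand at 3.98 and 4.33 in blue, and at 0.57 and -0.57 in red.

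The 10 transcripts fell into distinct courses over the arrays. The pairs with the highest Pearson correlation over the 6 arrays were Mmp9 with Mmp10 (0.995), Mmp8 with Mmp12 (0.993) and Mmp10 with Mmp12 (0.975). Mmp3 was less like them (0.777 with Mmp10 and 0.665 with Mmp12) and ran most nearly opposite to Timp3 (-0.962). These are descriptions over 6 arrays that include the contrast itself.

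Among 1282 genes above the median level with an SD of at least 0.5 over the arrays, the 3 with the most similar course to Mmp3 were Slc16a1 (r = 0.999), Rnd1 (0.998) and Ero1a (0.996). Those most like Mmp8 were Atf3, Slfn1 and Phtf2 (0.999, 0.997 and 0.997), and for Mmp12 they were Phtf2, Oasl1 and Slfn1 (0.995, 0.994 and 0.994). Mmp9 ran closest to Notch1 (0.998), Mmp10 (0.995) and Cd274 (0.994), and Mmp10 to Cd274, Fgf23 and Nt5e (0.998, 0.995 and 0.995). Mmp13 ran closest to Grem1, Cxcl10 and Gdpd1 (0.995, 0.993 and 0.991).

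Timp3 had 83 genes at r of 0.99 or more, led by Gulp1, Klhdc8a and Haus7, where the other 9 transcripts had between 0 and 17. Mmp2 ran closest to Fcgr4, Il7r and Clec4n (0.993, 0.991 and 0.986), of which Fcgr4 and Clec4n encode receptors of myeloid cells. Mmp2 itself had an SD of only 0.19 over the arrays. It was lowest, at 11.76, on Ad-Epas1 replicate 3, where the macrophage markers were lowest too, and any link was not tested. For Mmp14 (Fas, Cysltr1 and Cbr2, at 0.962, 0.959 and 0.952) and Timp1 (P3h2, Mx2 and F3, at 0.938, 0.925 and 0.915) no gene reached 0.99, and Timp1 itself had an SD of only 0.06 over the arrays.

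Of the other genes of the family, 16 of 17 listed were measured and Mmp15 was not analysed here. Over all arrays 2 rose (Mmp17 and Mmp25), 1 fell (Mmp16) and 13 did not pass, with a median log2 fold change of 0.10. At the same threshold 6.57% of all genes were called higher and 9.75% lower. Mmp16, a membrane-type metalloproteinase, stood at 9.65, 9.84 and 9.91 in Mock and at 6.83, 7.18 and 8.08 in Ad-Epas1, a change of -2.43 (SE 0.30, limma, adjusted p = 0.00436). The groups did not overlap, and this estimate was larger than that of Timp3, though the difference between them was not tested. Mmp17, a membrane enzyme held by a lipid anchor, stood at 7.33, 7.24 and 7.13 in Mock and at 8.68, 8.12 and 7.70 in Ad-Epas1, a rise of 0.93 (SE 0.23, adjusted p = 0.0396). Mmp25, named after its value was seen, rose by 0.40 (adjusted p = 0.0189).

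Timp2, which blocks Mmp2 and also takes part in its activation by Mmp14, stood at 12.66, 12.77 and 12.73 in Mock and at 12.47, 12.59 and 12.72 in Ad-Epas1 (log2 fold change -0.13, limma, adjusted p = 0.349), so its groups overlapped. Without Ad-Epas1 replicate 3, 4 of the 16 rose and 3 fell, beside 10.3% of all genes called higher and 14.0% lower. The count of 3 called family genes fell to 1 on dropping replicate 2 or replicate 3 of Mock. It was 2 on dropping replicate 1 of either group or replicate 2 of Ad-Epas1. Mmp16 kept its call in all 6 fits. Mmp17 lost it on dropping any Mock array or replicate 2 of Ad-Epas1 (highest adjusted p 0.138), and Mmp25 on dropping replicate 2 or 3 of Mock or replicate 1 of Ad-Epas1 (highest 0.0870).

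Proteins that activate, restrain or clear metalloproteinases formed a list of 23, with values for 20 and the other 3 not analysed here. Over all arrays 3 rose, 1 fell and 16 did not pass, with a median of 0.06. Of all genes, 6.57% were called higher and 9.75% lower in that fit. Ctsk, which encodes the collagen-cutting protease cathepsin K, rose by 1.38 (SE 0.11, limma, adjusted p = 0.00120), and Plaur, the receptor that holds urokinase at the cell surface, by 1.17 (SE 0.24, adjusted p = 0.0206). Lcn2, whose product binds Mmp9, rose by 0.43 (adjusted p = 0.0332) and was named after its value was seen. Thbs1, a matrix glycoprotein that takes part in the uptake of Mmp2, fell by 1.02 (SE 0.19, adjusted p = 0.0157). Ctsk kept its call with each array left out, while those of Plaur and Thbs1 ended when replicate 2 of either group or replicate 3 of Mock was dropped (highest adjusted p 0.0879 and 0.0711). That of Lcn2 ended on dropping any of these or replicate 1 of Ad-Epas1 (highest 0.121). The list held 1 called gene on dropping replicate 2 of either group or replicate 3 of Mock, and 8 on dropping replicate 3 of Ad-Epas1.

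Reck, a membrane protein that inhibits several metalloproteinases, stood at 10.32, 10.96 and 10.90 in Mock and at 9.07, 9.47 and 10.74 in Ad-Epas1. Replicates 1 and 2 of Ad-Epas1 were below every Mock array and replicate 3 was within the Mock range. The log2 fold change of -0.96 did not pass (limma, adjusted p = 0.168), and without Ad-Epas1 replicate 3 Reck fell by 1.46 (adjusted p = 0.00444). Plau, the urokinase gene, whose product activates plasminogen and through it several proenzymes, stood at 10.087, 9.997 and 9.986 in Mock and at 10.64, 10.42 and 8.55 in Ad-Epas1. Replicate 3 was the lowest of the 6 arrays and the other 2 Ad-Epas1 arrays the highest. Its log2 fold change was -0.15 over all arrays (adjusted p = 0.861) and 0.51 without Ad-Epas1 replicate 3 (adjusted p = 0.00962).

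Transcription factors known to act on metalloproteinase genes were a list of 22, with 19 measured and Fosl1, Runx2 and Nfkb1 not analysed here. Over all arrays 8 rose, 1 fell and 10 did not pass, with a median of 0.41, where 6.57% of all genes were called higher and 9.75% lower. Ets1, the founding ETS factor, rose by 1.48 (SE 0.10, limma, adjusted p = 0.000779). Nfkbiz, an inducible nuclear regulator of NF-kB, rose by 1.32 (SE 0.15, adjusted p = 0.00381), Junb, an AP-1 subunit, by 0.77 (SE 0.09, adjusted p = 0.00399) and Nfkb2 by 0.61 (SE 0.16, adjusted p = 0.0450). Etv5, an ETS factor, fell by 0.69 (SE 0.09, adjusted p = 0.00574).

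The AP-1 genes Fosb and Jun, Cebpb and the NF-kB subunit gene Rela made up the other 4 that rose, by 0.45 to 0.52, and were named after their values were seen. Of the 9 calls, those of Ets1, Nfkbiz, Junb and Etv5 held with each array left out. The count was 4 on dropping replicate 2 or 3 of Mock, and 6, 5 and 11 on dropping replicates 1, 2 and 3 of Ad-Epas1. Nfkb2 was among those lost, with a highest adjusted p of 0.155. Ets1 stood at 9.90 on Ad-Epas1 replicate 3, against 10.05 and 10.06 on replicates 1 and 2 and 8.37 to 8.69 in Mock. The AP-1 gene Fos, named after its values were seen, stood at 7.49, 7.60 and 7.61 in Mock and at 8.29, 8.39 and 7.70 in Ad-Epas1. It did not pass over all arrays (limma, adjusted p = 0.08) and rose by 0.78 without Ad-Epas1 replicate 3 (adjusted p = 0.00115). Any link of these factors to the enzymes was not tested.

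Cytokines that act on metalloproteinase genes, their receptors and the interleukin-1 antagonist Il1rn were all measured (17 of 17). Of these, 4 rose, 3 fell and 10 did not pass, with a median of 0.08. The shares of all genes were 6.57% called higher and 9.75% lower. Lif rose by 2.56 (SE 0.19, limma, adjusted p = 0.000982). Tnfrsf1b, a tumour necrosis factor receptor gene, rose by 1.71 (SE 0.30, adjusted p = 0.0135), and the cytokine gene Il6 by 2.72 (SE 0.64, adjusted p = 0.0324). Il1r1, the signalling receptor of interleukin-1, fell by 1.55 (SE 0.24, adjusted p = 0.00918) and Il6st, the shared receptor subunit of the interleukin-6 family, by 0.67 (SE 0.11, adjusted p = 0.0110). Il17ra (0.44) rose and Tgfbr2 (-0.58) fell as well, both named after their values were seen. Lif and Il1r1 kept their calls with each array left out.

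The count of 7 became 2 on dropping replicate 2 or 3 of Mock, and 4, 3 and 11 on dropping replicates 1, 2 and 3 of Ad-Epas1. Il1a stood at 8.47, 5.65 and 5.798 in Mock and at 12.32, 11.86 and 5.61 in Ad-Epas1. Il1b stood at 8.57, 6.06 and 6.34 in Mock and at 12.68, 12.20 and 5.54 in Ad-Epas1. Both had the course of Mmp8: high on Ad-Epas1 replicates 1 and 2, lowest of all arrays on replicate 3, and above the other Mock arrays on Mock replicate 1. On Mock replicates 2 and 3 and Ad-Epas1 replicate 3 both were under the 6.62 mark, so their order among these arrays is uncertain. Neither passed over all arrays (limma, adjusted p = 0.257 and 0.292), and both rose without Ad-Epas1 replicate 3 (0.00465 and 0.00284).

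Among 16 matrix proteins that these enzymes cut, all measured, 2 rose, 2 fell and 12 did not pass, with a median of -0.06. Beside these, 6.57% of all genes were called higher and 9.75% lower. Lamb1, a laminin chain, rose by 0.78 (SE 0.17, limma, adjusted p = 0.0234) and Vcan, the proteoglycan versican, by 0.67 (SE 0.18, adjusted p = 0.0454). The fibrillar collagen gene Col3a1 fell by 0.89 (SE 0.20, adjusted p = 0.0290), and Col2a1, named after its value was seen, by 0.47 (adjusted p = 0.0486). None of the 4 calls held with each array left out (highest adjusted p 0.160). The count was 2, 0 and 0 on dropping Mock replicates 1, 2 and 3, and 1, 0 and 6 on dropping those of Ad-Epas1.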

How the data were processed

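Total RNA of 6 cultures (3 Mock, 3 Ad-Epas1, grouped by title) was labelled from 300 ng each and hybridised to Affymetrix whole-transcript arrays. The values are log2 expression per probe set, which the authors deposited after RMA with Affymetrix Expression Console, version 1.3.1, as listed per the submitters' processing notes. RMA's quantile step gives the arrays nearly one distribution, and its probe summaries compress large changes. The build behind the probe sets was not stated. Precision is limited by the number of arrays.

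Of 41345 probe sets, 23521 had 1 symbol, 1814 several and 16010 none. Of the 23521, 23328 matched RefSeq GRCm38.p6 by Entrez ID, and 0 symbols changed. A gene with several probe sets (1082) was represented by that with the highest mean, and each member had 1, which left 22180 genes with no filter on level. The groups were compared with limma 3.58.1 (lmFit, eBayes; R 4.3.3) by a two-sided test, and p-values were adjusted by Benjamini-Hochberg across all of these genes, with calls at 0.05. The script was tested on simulated data. Promoters came from RefSeq.

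The members and lists were chosen with earlier results of these data known. Named genes were all members, Epas1, up to 4 list genes each way past the threshold and 1.5-fold by smallest p, Timp2, Reck, Plau, Il1a and Il1b whatever their p, and 3 genes of similar course per member. The alternatives were a replicate block, arrays left out, scaling, level filter, variance prior, array weights, probe set mean and a per-gene test.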

Additional observations from a re-analysis of the deposited data

How the results depend on the processing

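With Mock replicate 1 and Ad-Epas1 replicate 3 both left out, Mmp8 (log2 fold change 4.57), Mmp9 (2.03), Mmp10 (4.08), Mmp12 (1.77) and Mmp13 (1.48) passed the test as well. So they did with limma's array weights, at 3.80, 1.69, 3.45, 1.55 and 1.22, and Mmp14 fell by 0.24 (adjusted p = 0.0386). The first setting gave 6 members higher, 2621 genes higher and 3379 lower, and 8 other family genes, 9 of the activation and restraint list, 14 transcription factors and 14 cytokine genes called. Array weights gave 6 members higher and 2 lower, 3760 genes higher and 4031 lower, and 9, 10, 15 and 12 of those lists and 10 substrates called. In the per-gene test without shared variance, Mmp3 (0.47) and Timp3 (-1.95) did not pass, and over all genes 627 were higher and 821 lower. Mmp2 changed sign with arrays centred on their medians (-0.026), and on leaving out Ad-Epas1 replicate 1 (-0.05) or replicate 2 (-0.066). That centring gave 1080 genes higher and 2742 lower, against 1458 and 2162.

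The labels do not say if same-numbered arrays were paired. Deviations of same-numbered arrays from their group means correlated at 0.341, -0.189 and 0.214, which cannot settle it. With the replicate block 6 other family genes (3 without it) and 2 substrates (4 without it) were called, 1140 genes were higher and 1968 lower, and no member's call changed. The block lowered the SE of Mmp13 from 0.37 to 0.19 (limma, adjusted p = 0.0544). That of Timp3 went from 0.27 to 0.16 and that of Mmp8 from 1.29 to 0.91. The SEs of Mmp2, Mmp9, Mmp10 and Mmp12 were lower too, and those of Mmp3, Mmp14 and Timp1 slightly higher.

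With each array left out in turn, log2 fold changes ran from -0.07 to 0.19 for Mmp2, 0.42 to 0.54 for Mmp3, 1.67 to 4.33 for Mmp8, 1.04 to 2.04 for Mmp9, 1.99 to 3.98 for Mmp10, 0.74 to 1.76 for Mmp12, 0.63 to 1.18 for Mmp13, -0.27 to -0.11 for Mmp14, 0.05 to 0.10 for Timp1 and -2.24 to -1.76 for Timp3. Members called higher ranged from 0 to 6 and lower from 1 to 1, all genes higher from 418 to 2290 and lower from 762 to 3100. The called ranges were 1 to 7 for other family genes, 1 to 8 for activation and restraint, 4 to 11 for transcription factors, 0 to 6 for substrates and 2 to 11 for cytokines. The cause of these changes was not tested. Further quantile normalization, the level filter, the variance prior with trend and the probe set mean changed no member's direction or call. Each member has 1 probe set, so its values are the same under the probe set mean, and there was no further probe set to fit separately. Signals near those of the receptor genes (Mmp8 in Mock) limit fold changes.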
